A study of Homo sapiens with 8 samples.

Results

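The data cover the knockouts of 6 subunits of the ATAC complex, DR1, CSRP2BP, YEATS2, ZZZ3, MBIP and TADA2A, in a pooled CRISPR-Cas9 screen of Taxol-resistant breast cancer cells. The 6 genes were taken by symbol as subunits of ATAC, by a rule that uses no measured value, although earlier results of these data were known, and make up 6 of the 779 genes the screen targeted. Each of them was targeted by 10 single guide RNAs (sgRNAs), 60 in all of the 7855 sgRNAs counted. CSRP2BP is the older symbol of KAT14, the name that RefSeq now uses.

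ATAC (Ada-two-A-containing) is a histone acetyltransferase complex that is found at active promoters and enhancers and acetylates mainly histone H3. It shares its catalytic module with SAGA, the other large coactivator complex of this kind: an acetyltransferase of the GCN5/PCAF pair (KAT2A or KAT2B) is held by the adaptors TADA3 and SGF29 and by a TADA2 protein, which is TADA2A in ATAC and TADA2B in SAGA. The other members tell ATAC apart. CSRP2BP carries a further acetyltransferase domain, YEATS2 reads acetylated histone H3 through its YEATS domain, and ZZZ3 binds the tail of histone H3 through its ZZ domain. DR1 (the beta subunit of the negative cofactor NC2) pairs with YEATS2 through a histone fold and, with DRAP1, represses TATA-binding protein outside ATAC. MBIP is a scaffold subunit that was first named for binding and inhibiting the MAP kinase kinase kinase MUK.

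The cells were T1-160, a line made resistant to Taxol (paclitaxel, which stabilises microtubules) by raising the dose stepwise on SUM159PT, a triple-negative breast cancer line. All groups expressed Cas9, carried the lentiviral EPIKOL library of sgRNAs against chromatin regulators and had been selected in puromycin with verapamil, a blocker of the efflux pumps through which such cells expel drugs. The Taxol group (3 libraries) was grown in 160 nM Taxol for 16 population doublings, the DMSO group (3 libraries) in the solvent for 16 population doublings, and the AP group (2 libraries, replicates 1 and 3) was taken after puromycin selection, before the split. The labels do not say whether replicates were separate cultures. The p-values of limma thus measure the spread between these libraries, which may be technical. Those of robust rank aggregation, described below, do not test against that spread. Whether T1-160 is a clone or a pool was not given in the sources used here. An sgRNA that is more abundant in a library stands for more cells that carry it, whether or not its target was cut in each of them.

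The libraries held between 2045984 and 11771466 reads, or 260 to 1499 reads per sgRNA, with the shallowest and the deepest both in the Taxol group. The 10 most abundant of all sgRNAs took 6.23% to 10.6% of the normalized counts in the Taxol libraries, 2.36% to 2.80% in the DMSO libraries and 1.53% to 2.73% in the AP libraries. Each comparison rests on its own table of normalized counts, so levels are set against each other within a table only. A level below is the mean over a gene's 10 sgRNAs of log2(normalized count + 1), and a log2 fold change is the difference of the group means of that level, given with the pooled SD within groups.

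The comparison of Taxol with DMSO asks which knockouts were more or less abundant after growth in the drug. Knockouts of 5 of the 6 subunits lay above 0, led by DR1 at 0.61 ± 0.29, TADA2A at 0.50 ± 0.38 and ZZZ3 at 0.37 ± 0.19 (n = 3 libraries per group). MBIP followed at 0.26 ± 0.38 and CSRP2BP at 0.22 ± 0.28, while YEATS2 was at -0.0063 ± 0.52. The median of the 6 was 0.31, beside 0.031 for all 779 genes and 0.11 for the 80 non-targeting sgRNAs. The last is a median over single sgRNAs, which was 0.28 for the members' 60 and 0.036 for all targeting sgRNAs. None of the 6 was called after adjustment over all genes. Robust rank aggregation, which asks whether a gene's sgRNAs rank high or low among all sgRNAs and does not test against the spread between libraries, called 0 of 6 at an adjusted p under 0.05, beside 0.385% of all genes. At an unadjusted p under 0.05 it placed 1 of 6 among the enriched (DR1), beside 6.55% of all genes, and 0 of 6 among the depleted, beside 4.75%. On gene means, which limma tests against the spread between libraries, 0 of 6 passed after adjustment, as did 1 of all 779 genes. At an unadjusted p under 0.05, 2 of 6 passed (DR1 and TADA2A), beside 6.16% of all genes. Each of these passed in 8 of 14 refits of the gene means. The unadjusted p of DR1 was 0.362 with libraries scaled to equal totals and 0.104 when they were centred on the non-targeting sgRNAs. It was 0.947 by the per-library median over sgRNAs and 0.124 without the gene's most and least abundant sgRNA in each library. Without Taxol 3 it was 0.099 and without DMSO 1 it was 0.062. The unadjusted p of TADA2A was 0.560, 0.222, 0.293 and 0.112 under the first 4 of these settings, 0.301 without DMSO 2 and 0.196 without Taxol 1.

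**Figure D1:**
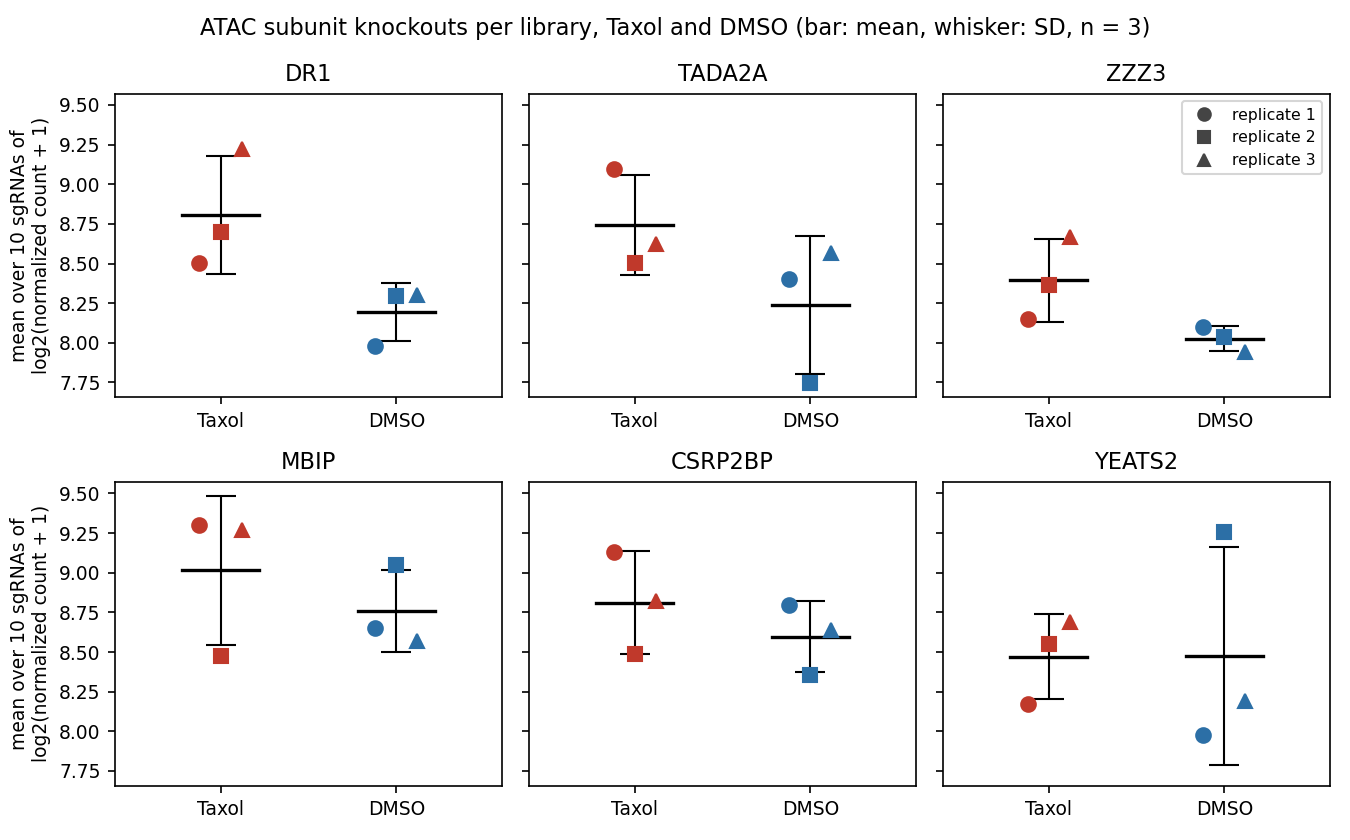
Level of each ATAC subunit knockout in the 3 Taxol and 3 DMSO libraries (y axis: mean over 10 sgRNAs of log2(normalized count + 1)), with the mean as a bar, the SD as whiskers and the replicate number as the symbol. For DR1 and ZZZ3 every Taxol library lies above every DMSO library, and for YEATS2 the DMSO libraries span 7.98 to 9.26.

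The libraries of the 2 groups did not overlap for 2 of the 6 members, DR1 and ZZZ3, both with Taxol above DMSO. This pattern held for 6.29% of all genes, and the opposite one, with every Taxol library below every DMSO library, held for 0 of 6 members and 4.49% of all genes. Libraries with the same replicate number deviated together only weakly in this table (r = 0.17, 0.13 and 0.21 for numbers 1 to 3). With that limit, differences within a number can also be read. DR1, TADA2A, ZZZ3 and CSRP2BP were higher in Taxol in all 3 pairs, 4 of the 6 members, and 16.9% of all genes were. MBIP and YEATS2 were higher in pairs 1 and 3 and lower in pair 2, by -0.58 for MBIP and -0.71 for YEATS2.

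DR1, the NC2 subunit, had levels of 8.50, 8.70 and 9.22 in the Taxol libraries 1 to 3, against 7.98, 8.30 and 8.30 in the DMSO libraries 1 to 3. Taxol 3 was the highest of the 6 and DMSO 1 the lowest, and the groups did not overlap. The log2 fold change of 0.61 (95% confidence interval 0.15 to 1.07) ranked 14th from the highest of the 779 genes. Rank aggregation gave a p for enrichment of 0.0028 and an adjusted p of 0.313, and limma on gene means a two-sided adjusted p of 0.640. Without Taxol 3 the change was 0.41 and the rank aggregation p 0.108, and DR1 passed the unadjusted threshold in the other 13 of the 14 alternatives that refitted the rank aggregation.

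The change of DR1 was spread unevenly over its sgRNAs, of which 7 were higher in Taxol and 3 lower. The highest, sgRNA 1829, was at 2.04 and the lowest, sgRNA 1830, at -0.36, with a median of 0.53. The sgRNA 1829 had 1771, 12692 and 1486 normalized counts in the Taxol libraries 1 to 3, against 408, 968 and 1215 in the DMSO libraries. Taxol 2 thus held 79.4% of all its DR1 counts in a single sgRNA. The sgRNA 1830 had 408, 534 and 761 normalized counts in Taxol, against 828, 383 and 1114 in DMSO, and its groups overlapped.

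Summed over the 10 sgRNAs, DR1 had 7596, 15986 and 10058 normalized counts in the Taxol libraries, against 3865, 4453 and 5084 in the DMSO libraries. Every Taxol sum was above every DMSO sum. With the most abundant sgRNA of each library left out, the sums were 3967, 3293 and 7128 in Taxol, against 3004, 3256 and 3870 in DMSO, and the groups overlapped. With both the most and the least abundant DR1 sgRNA of each library left out, the mean change was 0.38. The change of the per-library median over the 10 sgRNAs was -0.021.

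**Figure D2:**
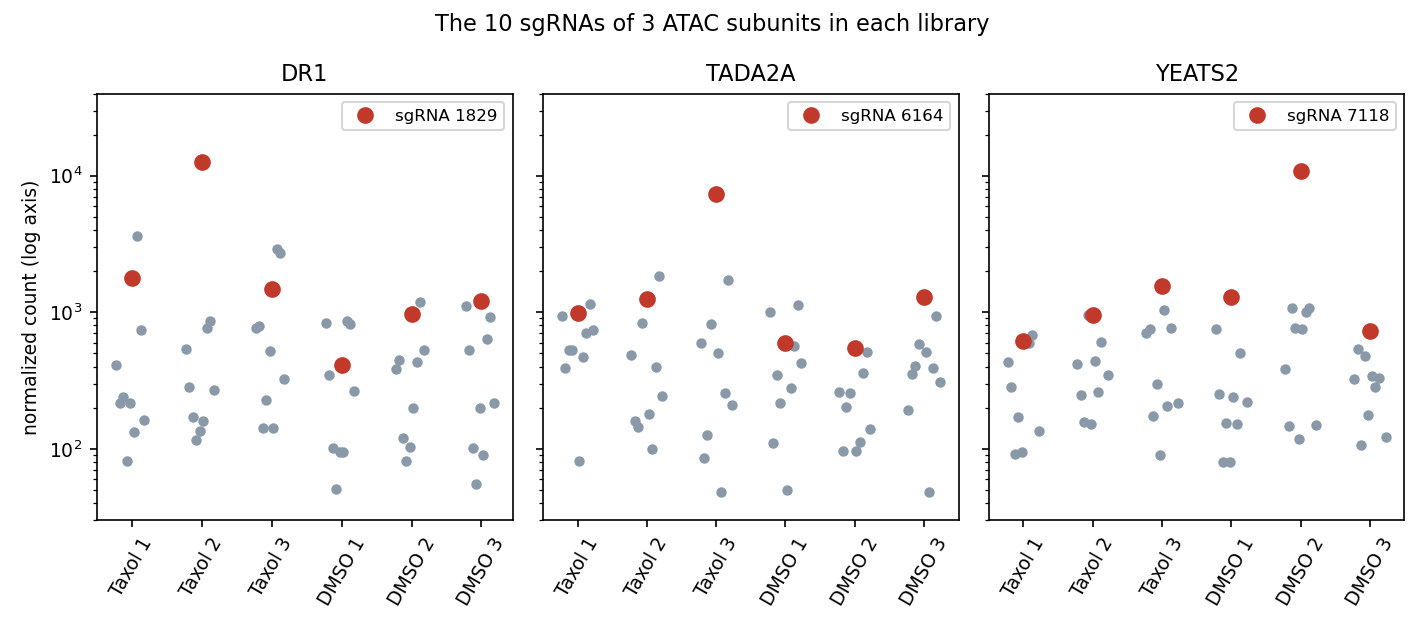
Normalized counts (log axis) of the 10 sgRNAs of DR1, TADA2A and YEATS2 in each Taxol and DMSO library, with the sgRNA that stood farthest above its next library in red and the others in grey. The red point is high in a single library each time, at 12692 in Taxol 2 for DR1, 7388 in Taxol 3 for TADA2A and 10757 in DMSO 2 for YEATS2.

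YEATS2, the acetyl-lysine reader that pairs with DR1, had levels of 8.17, 8.55 and 8.69 in the Taxol libraries, against 7.98, 9.26 and 8.19 in the DMSO libraries. DMSO 2 was the highest of the 6 and DMSO 1 the lowest, so that the DMSO libraries enclosed all Taxol libraries. The log2 fold change was -0.0063 (95% confidence interval -0.52 to 0.50), with an adjusted p of 0.996 by limma on gene means, and 5 sgRNAs were higher and 5 lower. It was 0.39 without DMSO 2, 0.14 without Taxol 1 and -0.25 without DMSO 1.

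The lowest sgRNA of YEATS2, 7118, was at -1.15 and had 617, 955 and 1549 normalized counts in Taxol, against 1295, 10757 and 723 in DMSO. In DMSO 2 it made up 66.3% of the YEATS2 counts. The highest, sgRNA 7115, was at 0.72, with 608, 439 and 1043 normalized counts in Taxol and 241, 759 and 339 in DMSO. Both sgRNAs overlapped between the groups. The spread between the DMSO libraries of YEATS2 was the widest of the 6 members and came with DMSO 2, in which 2 of its sgRNAs, 7118 and 7112, stood at least 4 times above the next library.

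TADA2A, the adaptor that sits with the acetyltransferase in ATAC and not in SAGA, had levels of 9.10, 8.50 and 8.63 in the Taxol libraries, against 8.41, 7.74 and 8.56 in the DMSO libraries. Taxol 1 was the highest and DMSO 2 the lowest, and DMSO 3 reached above Taxol 2. The log2 fold change was 0.50 (95% confidence interval 0.027 to 0.98), rank 28 from the highest. Its adjusted p was 0.909 for enrichment by rank aggregation and 0.748 by limma on gene means. Without DMSO 2 the change was 0.26, without Taxol 1 it was 0.33, and the 2 groups did not overlap without DMSO 3.

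Of the 10 sgRNAs of TADA2A, 8 were higher in Taxol. The highest, sgRNA 6164, was at 1.48 and had 985, 1251 and 7388 normalized counts in Taxol, against 599, 545 and 1294 in DMSO. It supplied 62.8% of the TADA2A counts of Taxol 3. The lowest, sgRNA 6162, was at -0.51, with 533, 145 and 125 normalized counts in Taxol against 350, 201 and 403 in DMSO. With the most and the least abundant TADA2A sgRNA of each library left out, the mean change was 0.42.

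CSRP2BP, the acetyltransferase particular to ATAC, had levels of 9.13, 8.49 and 8.82 in the Taxol libraries, against 8.80, 8.35 and 8.64 in the DMSO libraries. Taxol 1 was the highest and DMSO 2 the lowest, and the groups overlapped. The log2 fold change was 0.22 (95% confidence interval -0.25 to 0.68), with an adjusted p of 0.857 for enrichment by rank aggregation and 0.909 by limma on gene means. It was 0.055 without Taxol 1, 0.093 without DMSO 2 and 0.38 without Taxol 2.

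Within CSRP2BP, 6 sgRNAs were higher in Taxol and 4 lower, and they differed more among themselves than those of any other member, with an SD of 0.89 over the 10 sgRNAs. The highest, sgRNA 1462, was at 1.56 and had 1235, 507 and 1769 normalized counts in Taxol, against 418, 243 and 422 in DMSO, without overlap. The lowest, sgRNA 1465, was at -1.29, with 179, 271 and 196 normalized counts in Taxol against 581, 242 and 1007 in DMSO.

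ZZZ3, which binds the histone H3 tail, had levels of 8.15, 8.36 and 8.67 in the Taxol libraries, against 8.10, 8.04 and 7.94 in the DMSO libraries. The DMSO libraries lay close together, and Taxol 1 was only 0.048 above DMSO 1. The log2 fold change was 0.37 (95% confidence interval -0.071 to 0.81), rank 77 from the highest, with an adjusted p of 0.909 for enrichment by rank aggregation and 0.839 by limma on gene means. It was 0.23 without Taxol 3.

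Of the ZZZ3 sgRNAs, 7 were higher in Taxol. The highest, sgRNA 7401, was at 1.81 but was also the rarest of the 60 in DMSO, with 30.95, 86.0 and 187 normalized counts in Taxol against 13.9, 42.9 and 17.7 in DMSO. The lowest, sgRNA 7409, was at -0.97, with 276, 950 and 1690 normalized counts in Taxol against 1326, 2000 and 1265 in DMSO. Both overlapped between the groups.

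MBIP, the scaffold subunit, had levels of 9.30, 8.47 and 9.27 in the Taxol libraries, against 8.65, 9.05 and 8.57 in the DMSO libraries. Taxol 2 was the lowest of the 6 and DMSO 2 the highest of the DMSO libraries, so that pair 2 ran against the other 2 pairs. The log2 fold change was 0.26 (95% confidence interval -0.23 to 0.75), with an adjusted p of 0.920 for enrichment by rank aggregation and 0.909 by limma on gene means. It was 0.12 without Taxol 1, 0.13 without Taxol 3, 0.17 without DMSO 3, 0.41 without DMSO 2 and 0.53 without Taxol 2.

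Of the MBIP sgRNAs, 7 were higher in Taxol. The highest, sgRNA 3583, was at 1.16, with 1083, 271 and 484 normalized counts in Taxol against 346, 188 and 194 in DMSO. The lowest, sgRNA 3589, was at -0.54, with 83.0, 109 and 273 normalized counts in Taxol against 513, 114.5 and 131 in DMSO. Neither separated the groups.

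Over the 60 sgRNAs of the 6 genes, 40 were higher in Taxol than in DMSO and 20 lower, or 66.7% higher, beside 52.1% of all targeting sgRNAs. By limma on single sgRNAs, 4 of the 60 were higher at an unadjusted p under 0.05, beside 2.01% of all sgRNAs, and 0 were lower, beside 1.55%. The 4 were sgRNAs 1829 and 1826 of DR1, 7401 of ZZZ3 and 1462 of CSRP2BP, of which 1826 is named here because it passed. It had 3629, 762 and 2929 normalized counts in Taxol, against 860, 431 and 637 in DMSO. After adjustment by Benjamini-Hochberg, 0 of the 60 and 0 of all 7855 sgRNAs passed, and the lowest adjusted p among the 60 was 0.967.

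**Figure D3:**
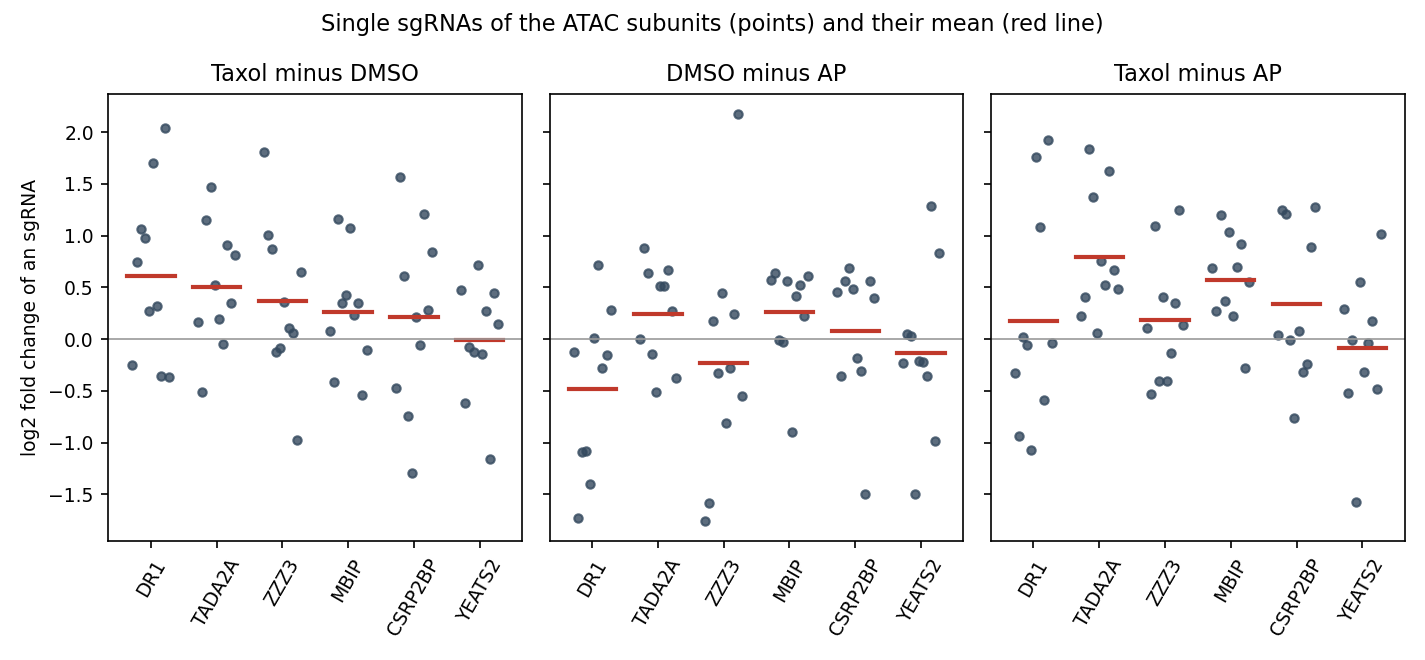
The 10 sgRNAs of each ATAC subunit as points (y axis: log2 fold change) with their mean as a red line, in the 3 comparisons. In Taxol minus DMSO the points of DR1 reach from -0.36 to 2.04, in DMSO minus AP 7 of its 10 points lie below 0, and in Taxol minus AP all 10 points of TADA2A lie above 0.

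Some sgRNAs were high in a single library. Of the 60, 5 (8.33%) had 1 library at least 4 times above the next of the 6, beside 7.31% of all targeting sgRNAs, of which 568 had such a library. The 5 were 1829 of DR1 in Taxol 2, 6164 of TADA2A in Taxol 3, 1470 of CSRP2BP in Taxol 1 and 7118 and 7112 of YEATS2 in DMSO 2. The highest library was a Taxol library for 3 of the 5 members' sgRNAs and for 400 of the 568. The median SD between libraries of the 60 sgRNAs was 0.81 in Taxol and 0.82 in DMSO, beside 0.63 and 0.70 for all targeting sgRNAs.

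The members' levels moved together over the 6 libraries only in part. Of the 15 pairs of members, 13 had a Pearson correlation above 0, beside 54.2% of all pairs of genes. The median was 0.30, beside 0.059 over all pairs of genes. DR1 and ZZZ3 were the closest pair (r = 0.89, 6 libraries) and TADA2A and CSRP2BP came next (r = 0.86). DR1 and YEATS2, which pair through a histone fold, were at r = 0.32. YEATS2 ran against TADA2A (r = -0.71) and against CSRP2BP (r = -0.66). These correlations are descriptions over 6 points that share drug, depth and scaling. Over all 779 genes, the levels most like those of DR1 were those of PHF2 (r = 0.97) and SUV39H2 (r = 0.93), and those most like ZZZ3 were CUL3 (r = 0.97) and RMI1 (r = 0.96). For TADA2A they were ZNF217 (r = 0.99) and SFMBT1 (r = 0.93), for CSRP2BP ZNF711 (r = 0.98) and UBR2 (r = 0.96). For YEATS2 they were JADE1 (r = 0.98) and VCP (r = 0.96), and for MBIP SMARCAL1 (r = 0.97). No member was among the 2 genes most like another member.

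The sign of small differences rests on the scaling of the libraries. As deposited, 55.1% of all genes lay above 0 in Taxol minus DMSO, against 15.1% when libraries were scaled to equal totals and 31.5% when they were centred on the non-targeting sgRNAs. Under these scalings the change of the median gene shifted by -0.31 and -0.17. DR1 was at 0.30 and 0.44, TADA2A at 0.19 and 0.33, ZZZ3 at 0.045 and 0.20 and YEATS2 at -0.31 and -0.18. CSRP2BP (-0.092 with equal totals and 0.044 on the non-targeting sgRNAs) and MBIP (-0.051 and 0.089) had the opposite sign with equal totals. Relative to the median gene, DR1 was at 0.58 under all 3 scalings. This was fixed in advance, since a scaling shifts every log2 value of a library by nearly the same amount.

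The comparison of DMSO with AP asks which knockouts were more or less abundant after growth without the drug. DR1 was the lowest of the 6 at -0.48 ± 0.18, followed by ZZZ3 at -0.23 ± 0.21 and YEATS2 at -0.13 ± 0.61 (n = 3 DMSO and 2 AP libraries). CSRP2BP was at 0.081 ± 0.17, TADA2A at 0.25 ± 0.32 and MBIP at 0.26 ± 0.32. The median of the 6 was -0.024, beside 0.15 for all genes and 0.43 for the non-targeting sgRNAs. The last is again a median over single sgRNAs, which was 0.0084 for the members' sgRNAs and 0.13 for all targeting sgRNAs. Rank aggregation called 0 of 6 after adjustment, beside 2.18% of all genes, and on gene means limma called 0 of 6 and 17 of 779. At an unadjusted p under 0.05, rank aggregation placed 1 of 6 among the depleted (DR1), beside 12.1% of all genes, and 0 among the enriched, beside 8.09%. On gene means 1 of 6 passed unadjusted (DR1), beside 21.2% of all genes. The libraries separated for DR1 alone, below in DMSO, as for 14.1% of all genes, and 0 of 6 members lay above in every DMSO library, as 29.3% of all genes did.

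**Figure D4:**
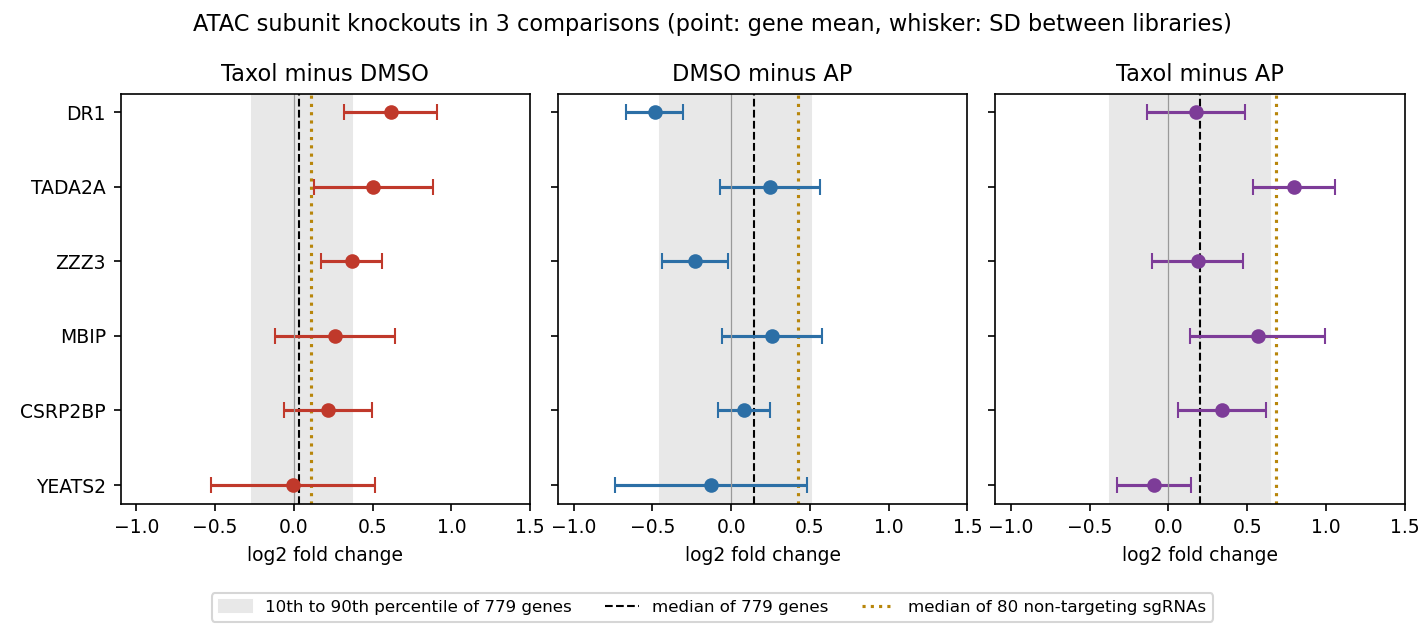
Log2 fold change (x axis) of the 6 ATAC subunit knockouts in each comparison, as the gene mean (point) with the SD between libraries (whisker). The band spans the 10th to the 90th percentile of all 779 genes, the dashed line is their median and the dotted line the median of the 80 non-targeting sgRNAs, and DR1 (0.61) and TADA2A (0.50) stand above the band in Taxol minus DMSO, where ZZZ3 (0.37) is at its edge, DR1 just below it in DMSO minus AP (-0.48) and TADA2A above it in Taxol minus AP (0.80).

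DR1 had levels of 8.40, 8.81 and 8.73 in the DMSO libraries 1 to 3, against 9.09 and 9.17 in the AP libraries 1 and 3. Every DMSO library lay below both AP libraries. The change of -0.48 (95% confidence interval -0.94 to -0.024) had a rank aggregation p of 0.024 for depletion (adjusted p = 0.274) and an adjusted p of 0.210 by limma on gene means. Its sgRNAs split into 2 ranges: 4 lay between -1.73 and -1.08, and the other 6 between -0.28 and 0.72. The lowest, sgRNA 1822, had 134, 171 and 136 normalized counts in DMSO, against 455 and 524 in AP. The highest, sgRNA 1827, had 1092, 1712 and 1246 in DMSO, against 618 and 1051 in AP, so both separated the groups in opposite directions. Both are named here for their rank in this comparison. The change was -0.85 with equal totals, where limma on gene means called it (adjusted p = 0.020), -0.79 on the non-targeting sgRNAs and -0.26 by the median over sgRNAs. With equal totals the median gene was at -0.23, and 20.8% of all genes lay above 0, against 63.3% as deposited. Relative to the median gene, DR1 was at -0.62 there, beside -0.63 as deposited. With equal totals limma also called more of all genes than as deposited, as counted below. DR1 passed the unadjusted threshold of rank aggregation in 9 of the 13 alternatives that refitted it. The exceptions were the fit with the replicate block, which drops DMSO 2, and the fits without any one of the DMSO libraries. The rank aggregation p was 0.076 with the block, 0.109 without DMSO 1, 0.070 without DMSO 2 and 0.090 without DMSO 3.

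ZZZ3 and YEATS2, the subunits that read histone H3, were not called. ZZZ3 had levels of 8.52, 8.55 and 8.37 in DMSO, against 8.94 and 8.47 in AP, and the groups overlapped. Its sgRNAs spanned -1.76 (7401) to 2.18 (7409), the widest span of the 6 genes, and its rank aggregation p was 0.116 for depletion and 0.051 for enrichment. The sgRNA 7409 had 1776, 2862 and 1702 normalized counts in DMSO, against 370 and 555 in AP, and was the 1 of the 60 that was higher at an unadjusted p under 0.05. Without AP 1 the change of ZZZ3 was 0.0090. YEATS2 had levels of 8.40, 9.77 and 8.62 in DMSO, against 9.15 and 8.96 in AP, and was at -0.55 without DMSO 2, which holds the high sgRNA 7118, and at 0.14 without DMSO 1. Without DMSO 2 its rank aggregation p for depletion was 0.0096 (adjusted p = 0.179). Its unadjusted p by limma on gene means was then 0.017 (adjusted p = 0.122). YEATS2 passed the unadjusted threshold of rank aggregation in 2 of 13 refits, this one and the replicate block, which also drops DMSO 2.

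CSRP2BP, TADA2A and MBIP stood above 0 as scaled by the authors. CSRP2BP had levels of 9.22, 8.87 and 9.07 in DMSO, against 8.87 and 9.07 in AP. TADA2A had 8.82, 8.26 and 8.99 in DMSO, against 8.51 and 8.38 in AP, and was the lowest of the 6 members in both AP libraries. MBIP had 9.07, 9.57 and 8.99 in DMSO, against 9.18 and 8.72 in AP. None of the 3 separated the groups, and all 3 turned negative both with equal totals (-0.30, -0.13 and -0.12) and on the non-targeting sgRNAs (-0.23, -0.062 and -0.047). Under these scalings 20.8% and 28.4% of all genes lay above 0, against 63.3% as deposited.

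Over the 60 sgRNAs, 31 were higher in DMSO than in AP and 29 lower, or 51.7% higher beside 56.5% of all targeting sgRNAs. At an unadjusted p under 0.05, limma on single sgRNAs found 5 lower, beside 3.65% of all sgRNAs, and 1 higher, beside 3.21%. The 5 were 1822 of DR1, 7401 and 7402 of ZZZ3, 1468 of CSRP2BP and 7114 of YEATS2, each with every DMSO library below both AP libraries. After adjustment 0 of the 60 and 0 of all sgRNAs passed, with a lowest adjusted p of 0.695 among the 60. The median SD of the 60 sgRNAs was 0.79 between the DMSO libraries and 0.40 between the AP libraries.

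The comparison of Taxol with AP joins growth and drug. It shares the Taxol libraries with the first comparison and the AP libraries with the second, so its values are not independent of theirs. TADA2A was the highest of the 6 at 0.80 ± 0.26, followed by MBIP at 0.57 ± 0.43, CSRP2BP at 0.34 ± 0.28, ZZZ3 at 0.19 ± 0.29, DR1 at 0.18 ± 0.31 and YEATS2 at -0.090 ± 0.23 (n = 3 Taxol and 2 AP libraries). The median of the 6 was 0.26, beside 0.20 for all genes and 0.68 for the non-targeting sgRNAs. The last is again a median over single sgRNAs, which was 0.25 for the members' sgRNAs and 0.14 for all targeting sgRNAs. Rank aggregation called 0 of 6 after adjustment, beside 6.16% of all genes, and on gene means limma called 0 of 6 and 1 of 779. At an unadjusted p under 0.05, 1 of 6 was enriched (TADA2A), beside 8.47% of all genes, and 0 depleted, beside 13.2%. On gene means 1 of 6 passed unadjusted (TADA2A), beside 23.2%. The Taxol libraries lay above both AP libraries for TADA2A alone, as for 32.3% of all genes, and below them for 0 of 6, beside 14.5%.

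TADA2A had levels of 9.21, 8.61 and 8.75 in the Taxol libraries 1 to 3, against 8.12 and 8.00 in the AP libraries 1 and 3. Both AP libraries were well below every Taxol library, and all 10 sgRNAs of the gene were higher in Taxol, from 0.058 to 1.84. The change of 0.80 (95% confidence interval 0.31 to 1.28) ranked 39th from the highest. Its rank aggregation p for enrichment was 0.018 (adjusted p = 0.404), and its adjusted p by limma on gene means was 0.091. The sgRNA 6163, named as the highest here, had 574, 896 and 894 normalized counts in Taxol, against 195 and 236 in AP. The sgRNA 6164 had 1064, 1351 and 8043 in Taxol, against 1039 and 727 in AP. The change was 0.064 with equal totals and 0.27 on the non-targeting sgRNAs. TADA2A passed the unadjusted threshold of rank aggregation in 7 of the 13 alternatives that refitted it. The p was 0.102 with equal totals, 0.062 on the non-targeting sgRNAs, 0.091 when sgRNAs were ranked by log2 fold change, 0.163 with the replicate block, 0.200 without Taxol 2 and 0.220 without AP 3. On gene means its unadjusted p was 0.866 with equal totals and 0.335 on the non-targeting sgRNAs.

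MBIP had levels of 9.42, 8.58 and 9.39 in Taxol, against 8.79 and 8.33 in AP, and overlapped only through Taxol 2. Of its sgRNAs, 9 were higher in Taxol, and its adjusted p was 0.851 for enrichment by rank aggregation and 0.220 by limma on gene means. Without AP 1 the change was 0.80 and the adjusted p of rank aggregation 0.036, the one setting in which a member was called by rank aggregation. CSRP2BP had levels of 9.24, 8.60 and 8.94 in Taxol, against 8.48 and 8.69 in AP. ZZZ3 had 8.26, 8.47 and 8.79 in Taxol, against 8.55 and 8.09 in AP. Both overlapped between the groups.

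DR1 and YEATS2 were nearest to 0 as deposited and farthest from it with equal totals, at -0.55 and -0.81. DR1 had levels of 8.61, 8.81 and 9.34 in Taxol, against 8.70 and 8.79 in AP, with Taxol 1 below both AP libraries and the other 2 Taxol libraries above. Its change was 0.18 (95% confidence interval -0.33 to 0.69), and 6 of its 10 sgRNAs were lower in Taxol. Without Taxol 3 it was -0.034. YEATS2 had levels of 8.28, 8.66 and 8.81 in Taxol, against 8.76 and 8.58 in AP, and its change was -0.090 (95% confidence interval -0.56 to 0.38). On the non-targeting sgRNAs it was -0.62, with an unadjusted p of 0.027 by limma on gene means, as with equal totals. The adjusted p by limma on gene means was 0.104 and 0.108 in these settings, where the median gene was at -0.33 and -0.53. Relative to the median gene, YEATS2 was at -0.29 and -0.28 there, beside -0.29 as deposited. In both settings limma called more of all genes than as deposited, as counted below.

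Over the 60 sgRNAs, 39 were higher in Taxol than in AP and 21 lower, or 65.0% higher beside 57.5% of all targeting sgRNAs. At an unadjusted p under 0.05, limma on single sgRNAs found 2 higher (6163 and 6168 of TADA2A), beside 2.24% of all sgRNAs, and 2 lower (1825 of DR1 and 7114 of YEATS2), beside 3.9%. After adjustment 0 of the 60 and 0 of all sgRNAs passed. As deposited 67.7% of all genes lay above 0, against 6.03% with equal totals and 18.9% on the non-targeting sgRNAs. DR1, CSRP2BP and ZZZ3 turned negative under both scalings (-0.55, -0.39 and -0.54 with equal totals), MBIP with equal totals only (-0.17).

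Side by side, the members had different patterns over the 3 comparisons, which share libraries. DR1 was at 0.61 in Taxol minus DMSO, -0.48 in DMSO minus AP and 0.18 in Taxol minus AP. ZZZ3 gave 0.37, -0.23 and 0.19 in the same order, with the same signs as DR1. Its libraries overlapped in DMSO minus AP, where its change was 0.0090 without AP 1. The DMSO libraries are the reference in Taxol minus DMSO and the tested group in DMSO minus AP, so these values are not independent. TADA2A gave 0.50, 0.25 and 0.80 and MBIP 0.26, 0.26 and 0.57, with all 3 values above 0 as deposited. CSRP2BP was at 0.22, 0.081 and 0.34, and YEATS2 at -0.0063, -0.13 and -0.090. Differences between members were not tested.

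The subunits that ATAC shares with other complexes were counted beside the 6. Of the 6 measured (KAT2A, KAT2B, TADA3, WDR5, POLE3 and SGF29 under its older symbol CCDC101), 1 was enriched in Taxol over DMSO at an unadjusted p under 0.05 by rank aggregation, beside 6.55% of all genes, and 0 after adjustment. It was TADA3, the adaptor next to TADA2A, at 0.86 ± 0.30 (adjusted p = 0.081), beside 0.50 for TADA2A. The other 5 lay between -0.27 (KAT2B) and 0.37 (CCDC101), with the catalytic subunits KAT2A and KAT2B at 0.095 ± 0.14 and -0.27 ± 0.29 and POLE3 at -0.26 ± 0.11. In DMSO minus AP 1 was depleted unadjusted, beside 12.1% of all genes, the histone-fold subunit POLE3, at -0.41 ± 0.074 (adjusted p = 0.192). In Taxol minus AP TADA3 was enriched (1.25 ± 0.40, adjusted p = 0.012) and POLE3 depleted (-0.62 ± 0.12, adjusted p = 0.017) after adjustment by rank aggregation, with adjusted p of 0.074 and 0.147 by limma on gene means.

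Of 15 measured subunits of SAGA that are not in ATAC, 2 were enriched in Taxol over DMSO at an unadjusted p under 0.05, beside 6.55% of all genes, 0 were depleted, beside 4.75%, and the median was 0.090, beside 0.31 for the 6 ATAC members. They were the deubiquitinase USP22 (1.54 ± 0.31, adjusted p = 0.0078 by rank aggregation and 0.000405 by limma on gene means) and its partner ATXN7L3 (0.52 ± 0.20, adjusted p = 0.639). TADA2B, the paralogue that takes the place of TADA2A in SAGA, was at 0.025 ± 0.28. In DMSO minus AP 1 of the 15, ENY2, was depleted unadjusted (-0.21 ± 0.24), beside 12.1% of all genes, and 0 were enriched, beside 8.09%. In Taxol minus AP 4 were enriched unadjusted, USP22 (1.78 ± 0.33, adjusted p = 0.0019), ATXN7 (0.96 ± 0.59), ATXN7L3 (0.93 ± 0.21) and SUPT7L (0.90 ± 0.35), and 2 depleted, ENY2 (-0.12 ± 0.13) and TAF9 (-0.097 ± 0.12). Over all genes these shares were 8.47% and 13.2%. Of these 6, USP22 alone was called after adjustment.

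Of the other YEATS-domain genes, MLLT1 and YEATS4 were measured. Neither passed the unadjusted threshold in Taxol over DMSO, where MLLT1 was at 0.045 ± 0.38 and YEATS4 at -0.053 ± 0.28, beside -0.0063 for YEATS2. MLLT1 is ENL, a reader of acetylated histones in the super elongation complex. By rank aggregation it was enriched unadjusted in DMSO minus AP (0.94 ± 0.20, adjusted p = 0.078). In Taxol minus AP it was so too (1.03 ± 0.38, adjusted p = 0.088). On gene means limma called MLLT1 in DMSO minus AP (adjusted p = 0.028) and not in Taxol minus AP (adjusted p = 0.074). DRAP1, the NC2 partner of DR1, was not analysed here, nor were POLE4, SUPT20H and MLLT3.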

How the data were processed

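The authors counted sgRNA reads in genomic DNA of 8 libraries of T1-160 Cas9 cells and compared groups with MAGeCK 0.5.8. The deposited values are counts normalized by the authors in each of 3 tables on its own, with a group's values written into one cell per sgRNA. Value n of a cell was taken as replicate n, which the files do not state. A total of 2 value columns, 1 in each AP comparison, match no labelled sample and were not used. The authors' own fold changes, p-values and ranks in these tables were not used. A leftover header row in each table, 1 per table with all values at 0, was left out, which leaves 7855 sgRNAs, 80 of them non-targeting. Between 96.2% and 99.99% of values in a library were whole reads within 0.1 read, which gave the depth. No guide sequence and no genome build was given in the sources used here.

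Values were log2(normalized count + 1). limma 3.58.1 (R 4.3.3, lmFit and eBayes with trend) was fitted to all sgRNAs of a table with the 2 groups compared. Genes were tested by robust rank aggregation over the lowest or highest 25% of ranks of the moderated statistic, one-sided, against 1e+05 draws of uniform ranks, and by limma on gene means, two-sided. All p-values were adjusted by Benjamini-Hochberg over 779 genes or 7855 sgRNAs and called under 0.05. The scripts were tested on simulated data. Alternatives were a pseudocount of 10, 2 other scalings, other averages over sgRNAs, a minimum mean of 50 normalized counts, other rankings, the replicate block, each library left out and, added after seeing the data, voom on whole reads. Deviations from the group means of libraries with the same number correlated weakly in Taxol and DMSO (r = 0.17, 0.13 and 0.21 for numbers 1 to 3). The main fits did not use this link. Members and lists were chosen with earlier results of these data known. All members are named in every comparison, and single sgRNAs are the highest and lowest of each member in Taxol minus DMSO unless stated. Genes of the lists are named where they passed the unadjusted threshold. KAT2A, KAT2B, CCDC101, TADA2B and YEATS4, POLE3 and MLLT1 in Taxol minus DMSO and the other single sgRNAs fall outside that rule and were chosen after their values were seen. For likeness the 2 genes with the highest Pearson r to each member are named, apart from 1 gene for MBIP that is not reported here.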

Additional observations from a re-analysis of the deposited data

How the results depend on the processing

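Of 240 values of the 6 members' log2 fold changes in the 3 comparisons that an alternative recomputed, 206 kept their sign and 34 had the opposite sign. After adjustment 1 passed by rank aggregation, MBIP in Taxol minus AP without AP 1 (0.80). Rank aggregation was not refitted where only the average over sgRNAs or the gene test changed. The cause was not tested in any of them. With libraries scaled to equal totals, CSRP2BP and MBIP were at -0.092 and -0.051 in Taxol minus DMSO, CSRP2BP, MBIP and TADA2A at -0.30, -0.12 and -0.13 in DMSO minus AP, and DR1, CSRP2BP, ZZZ3 and MBIP at -0.55, -0.39, -0.54 and -0.17 in Taxol minus AP. Centred on the non-targeting sgRNAs, CSRP2BP, MBIP and TADA2A were at -0.23, -0.047 and -0.062 in DMSO minus AP and DR1, CSRP2BP and ZZZ3 at -0.35, -0.18 and -0.34 in Taxol minus AP. By the median over sgRNAs, DR1 and YEATS2 were at -0.021 and 0.033 in Taxol minus DMSO, CSRP2BP at -0.094 in DMSO minus AP, and DR1, YEATS2 and ZZZ3 at -0.24, 0.034 and -0.079 in Taxol minus AP. Without the gene's most and least abundant sgRNA in each library, YEATS2 was at 0.12 in Taxol minus DMSO and DR1 at -0.078 in Taxol minus AP.

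With 1 library left out, YEATS2 ranged from -0.25 to 0.39 in Taxol minus DMSO, from -0.55 to 0.14 in DMSO minus AP and from -0.20 to 0.062 in Taxol minus AP. In DMSO minus AP, CSRP2BP ranged from -0.022 to 0.18, ZZZ3 from -0.46 to 0.0090, MBIP from 0.030 (without AP 3) to 0.49 (without AP 1) and TADA2A from 0.097 (without DMSO 3) to 0.46 (without DMSO 2). In Taxol minus AP, DR1 ranged from -0.034 to 0.33, ZZZ3 from -0.045 to 0.42, MBIP from 0.34 to 0.84 and CSRP2BP from 0.18 (without Taxol 1) to 0.51 (without Taxol 2).

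Over all genes, rank aggregation called 3, 17 and 48 genes in Taxol minus DMSO, DMSO minus AP and Taxol minus AP, and 1, 9 and 19 over the outer 10% of ranks. Ranked by log2 fold change it called 27 in DMSO minus AP. With 1 library left out it called 1 to 4, 12 to 27 and 3 to 39. On gene means limma called 1, 17 and 1 genes, 2, 101 and 60 with equal totals, and 154 in Taxol minus AP on the non-targeting sgRNAs. By the median over sgRNAs it called 6 and 5 in the comparisons with AP. Without a gene's most and least abundant sgRNA in each library it called 2 in Taxol minus DMSO. With 1 library left out it called 0 to 4, 0 to 33 and 0 to 9. Single sgRNAs called in DMSO minus AP were 0, and 0 to 1 with 1 library left out.

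With the replicate block, limma called 3, 67 and 64 genes on gene means and 19 single sgRNAs in DMSO minus AP. The block drops DMSO 2 or Taxol 2 in the comparisons with AP, where only numbers 1 and 3 exist in both groups and do not pair the libraries. It left DR1 in Taxol minus DMSO at an adjusted p of 0.494 by rank aggregation and 0.310 by limma on gene means, and it changed no member's call by rank aggregation. Members passed on gene means in 2 alternatives, TADA2A in Taxol minus AP with the block (adjusted p = 0.022) and DR1 in DMSO minus AP with equal totals (adjusted p = 0.020).

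The AP group has 2 libraries, and a left-out AP library leaves 1, which is then assumed to vary like the other group. The shallowest library, Taxol 2, held 260 reads per sgRNA. Read depth limits rare sgRNAs such as 7401 of ZZZ3 most.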
